A study of Homo sapiens with 6 samples.

Results

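The 52 genes described here form the DNA damage response and repair machinery as it was listed for these cells: the damage kinases and sensors, homologous recombination, the Fanconi anaemia pathway, end joining, base excision and single-strand break repair, mismatch repair and nucleotide excision repair. They were found by gene symbol in a table of 57819 genes, and all 52 were present. Polyadenylated RNA was sequenced from 6 libraries of IMR90, a human lung fibroblast line, carrying ER:Ras, a fusion of oncogenic Ras to the oestrogen receptor that is switched on by 4-hydroxytamoxifen (4OHT). All 6 libraries are labelled as treated with 200 nM 4OHT for 3 days, so every cell studied had the oncogene switched on, the controls included. The control group received a scrambled siRNA (siSCR, 3 libraries) and the knockdown group an siRNA against sin-lncRNA, a long noncoding RNA of senescent cells (3 libraries). The protocol also mentions vehicle-treated cells, but no such sample is among the 6, so the values compare Ras-activated cells with and without sin-lncRNA and say nothing of the change that Ras itself made. All libraries come from 1 cell line and 1 siRNA label per group, and the labels do not say that the replicates were separate cultures, so the p-values measure the spread between these libraries, which may be technical.

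Cells detect a double-strand break through the MRE11A-RAD50-NBN complex, which recruits the kinase ATM, and detect stretches of single-stranded DNA through the kinase ATR, which acts through CHEK1. Breaks are then rejoined directly by end joining or copied from the sister chromatid by homologous recombination, while crosslinked strands are handled by the Fanconi anaemia proteins and damaged or mispaired bases by excision pathways. An activated Ras oncogene first drives cells into faulty replication, and the persistent damage signal that follows is a known feature of oncogene-induced senescence. Many genes of homologous recombination, the Fanconi pathway and the ATR arm are transcribed mainly in dividing cells, under E2F factors.

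Total reads in genes, recovered from the deposited log2 values, were 34065433, 30271192 and 50913672 in the control libraries and 22117324, 23320608 and 27882280 in the knockdown libraries, and each knockdown library held fewer reads than any control. Levels are given below as RPM (reads per 1000000 reads of the authors' effective library size). RPM is not corrected for transcript length, so it does not rank the levels of different genes. Ratios between partner genes are read below only for their change between the groups. A count of 3 reads corresponds to between 0.0596 and 0.135 RPM in these libraries. The targeted RNA, sin-lncRNA, was at 3.70, 4.73 and 4.09 RPM in the controls and 0.493, 0.640 and 0.534 RPM in the knockdown libraries, or 13.3% of the control mean (log2 difference -2.86, SE 0.18, adjusted p = 7.9e-07, limma). Markers of fibroblasts summed to 15189.4 to 16371.1 RPM in the controls and 10692.1 to 11118.8 RPM in the knockdown libraries, with 3 of the 8 called higher and 5 lower. Markers of other cell types were low: 5 epithelial markers summed to 0.314 to 0.533 RPM over all 6 libraries, with 2 at 0 reads in all of them, 5 leukocyte markers to 0.0896 to 0.428 RPM, and 3 endothelial markers to 1.70 to 1.90 RPM in the controls against 2.29 to 2.71 RPM in the knockdown libraries. Nearly all of the endothelial sum was VWF, which was called higher (log2 difference 0.42, adjusted p = 0.034), and its part in the results below was not tested.

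Repair genes were more often lower than higher after the knockdown. Of the 52 genes, 19 were called lower (36.5%) and 2 higher (3.85%), where called means an adjusted p under 0.05 in limma, with Benjamini-Hochberg adjustment over the 19048 genes tested. The background is large: 41.0% of all genes tested were called, 23.5% lower and 17.5% higher, and among 13002 protein-coding genes 48.6% were called, 26.4% lower and 22.2% higher. The repair genes (40.4% called) were thus called about as often as all genes tested (41.0%) and less often than protein-coding genes (48.6%). Their split between directions was uneven. Their median log2 difference was -0.20, against -0.04 for all genes tested, and the single values ran from -0.70 for FANCA to 0.38 for FANCC. In 24 of the 52 every knockdown library lay below every control (28.3% of all genes tested did), and in 4 every knockdown library lay above (22.8%). The 52 genes together summed to 2363.5, 2482.7 and 2476.8 RPM in the controls and 2257.9, 2139.8 and 2219.5 RPM in the knockdown libraries. These sums did not overlap between the groups. A few abundant genes weigh heavily in them. The 5 end joining genes alone summed to 1027.2, 1103.4 and 1098.4 RPM in the controls and 998.2, 926.8 and 981.2 RPM in the knockdown libraries. The pathways differed in how many of their genes were called: 6 of 9 Fanconi anaemia genes fell, 4 of 10 kinases and sensors, 4 of 8 genes of base excision, 2 of 5 of nucleotide excision, 2 of 5 of end joining, 1 of 12 of homologous recombination and 0 of 3 of mismatch repair. Differences between these shares were not tested. With a trend on transcript GC content and length removed from the values, 30 of the 52 were called lower (57.7%, against 24.1% of 18546 genes) and 2 higher (3.85%, against 20.0% of those genes).

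**Figure D1:**
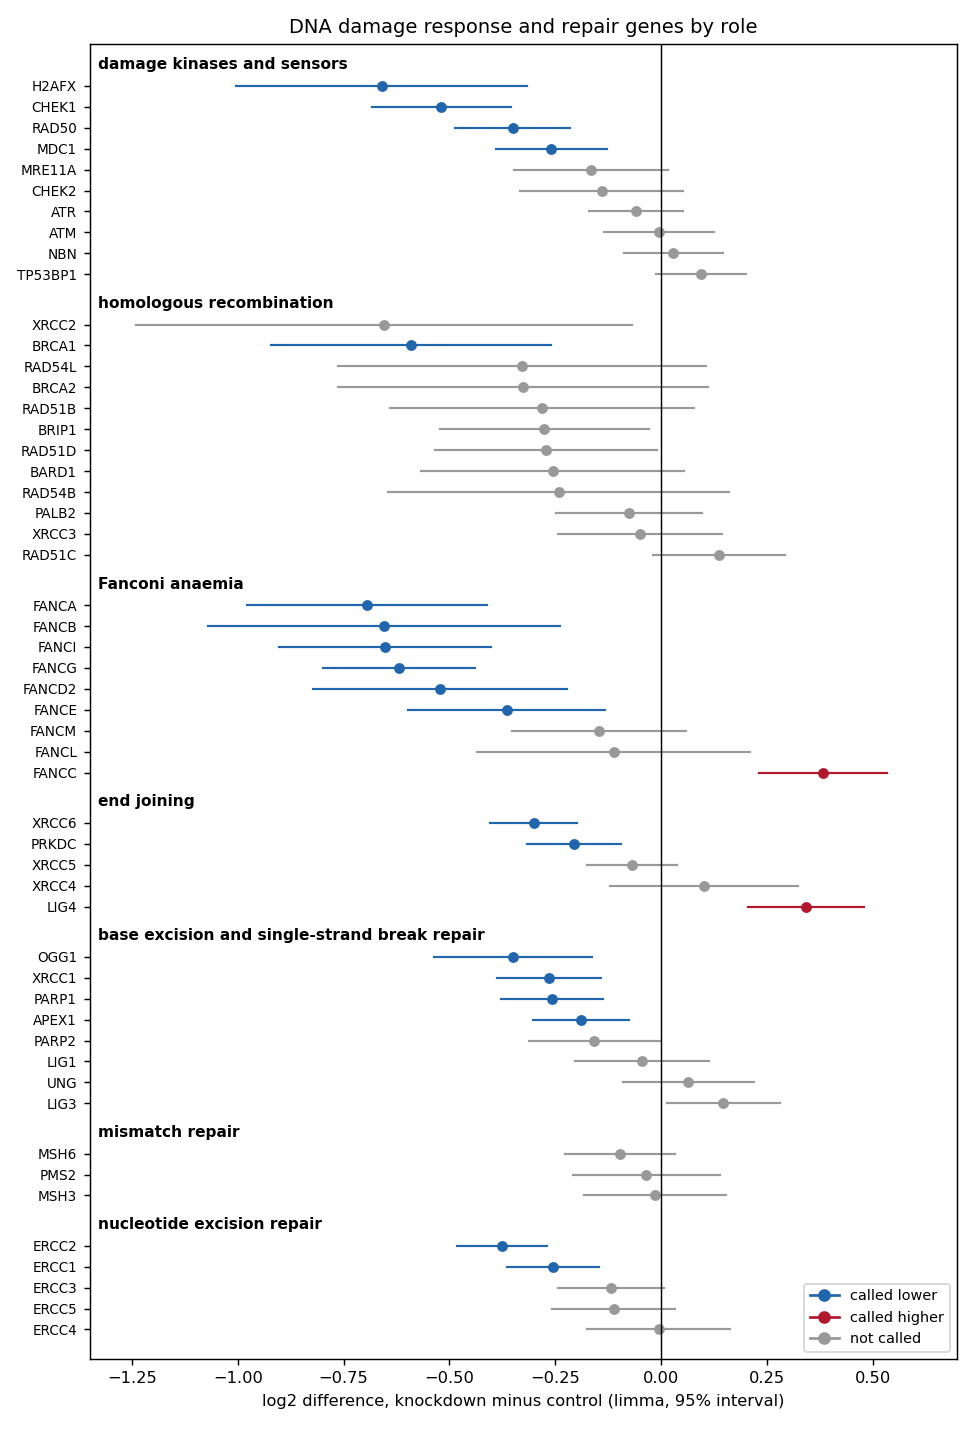
The x axis is the log2 difference of knockdown minus control with its 95% interval from limma (3 libraries a group), and each row is a gene, ordered by role, with blue or red marking called genes by the colours of the legend and grey the genes not called. Most Fanconi anaemia genes lie left of 0, from -0.70 for FANCA, while FANCC (0.38) and LIG4 (0.34) are the 2 called to the right.

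Among the damage kinases and sensors, CHEK1, H2AFX, RAD50 and MDC1 fell, and the apex kinases ATM and ATR were not called. CHEK1 encodes the checkpoint kinase that ATR activates to halt the cycle when replication stalls. It was at 21.3, 21.5 and 23.3 RPM in the controls and at 16.6, 14.3 and 15.2 RPM in the knockdown libraries, with no overlap between the groups (log2 difference -0.52, SE 0.074, adjusted p = 0.00027). The gene lies at 11:125495036-125546150 on the plus strand and shares part of that span with STT3A on the same strand, so some reads could not be assigned with certainty. H2AFX encodes the histone variant H2AX, whose phosphorylated form marks chromatin around a break. Its levels were 37.3, 26.1 and 39.0 RPM in the controls and 17.1, 24.6 and 22.8 RPM in the knockdown libraries (log2 difference -0.66, SE 0.16, adjusted p = 0.0060). Control 2 stood well below the other controls and only just above the highest knockdown library, and the call was lost without the intensity trend (adjusted p = 0.054) and with a robust variance estimate (adjusted p = 0.065).

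RAD50 encodes the ATPase that bridges broken ends within the MRE11A-RAD50-NBN complex. Its values were 35.5, 40.3 and 38.4 RPM in the controls and 31.2, 29.2 and 29.1 RPM in the knockdown libraries, without overlap (log2 difference -0.35, SE 0.062, adjusted p = 0.0011). Its partner MRE11A, the nuclease, had a log2 difference of -0.17 (adjusted p = 0.13), with every knockdown library below every control. NBN, the subunit that binds ATM, had one of 0.03 (adjusted p = 0.70), with overlap. MDC1, the scaffold that reads phosphorylated H2AX, was at 31.1, 33.7 and 30.7 RPM in the controls and 27.1, 25.6 and 27.1 RPM in the knockdown libraries (log2 difference -0.26, SE 0.059, adjusted p = 0.0051). All 3 knockdown values lay below all 3 controls.

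TP53BP1, whose product shields breaks from resection, was at 157.9, 172.7 and 162.5 RPM in the controls and 181.3, 168.3 and 176.7 RPM in the knockdown libraries. The groups overlapped, and the log2 difference of 0.09 had a 95% interval of -0.01 to 0.20. ATM was at 95.5, 86.6 and 86.9 RPM in the controls and 96.0, 86.2 and 86.0 RPM in the knockdown libraries. Its log2 difference of -0.0049 had a 95% interval of -0.13 to 0.12. With the GC and length trend removed, ATM and ATR were both called lower, at -0.16 (adjusted p = 0.023) and -0.18 (adjusted p = 0.0042), outside their intervals in the deposited values. In those values ATR had a difference of -0.06 (interval -0.17 to 0.05) and CHEK2, the kinase that ATM activates, one of -0.14 (interval -0.33 to 0.05), the latter with 4 like-named copies in the table that could take up its reads.

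**Figure D2:**
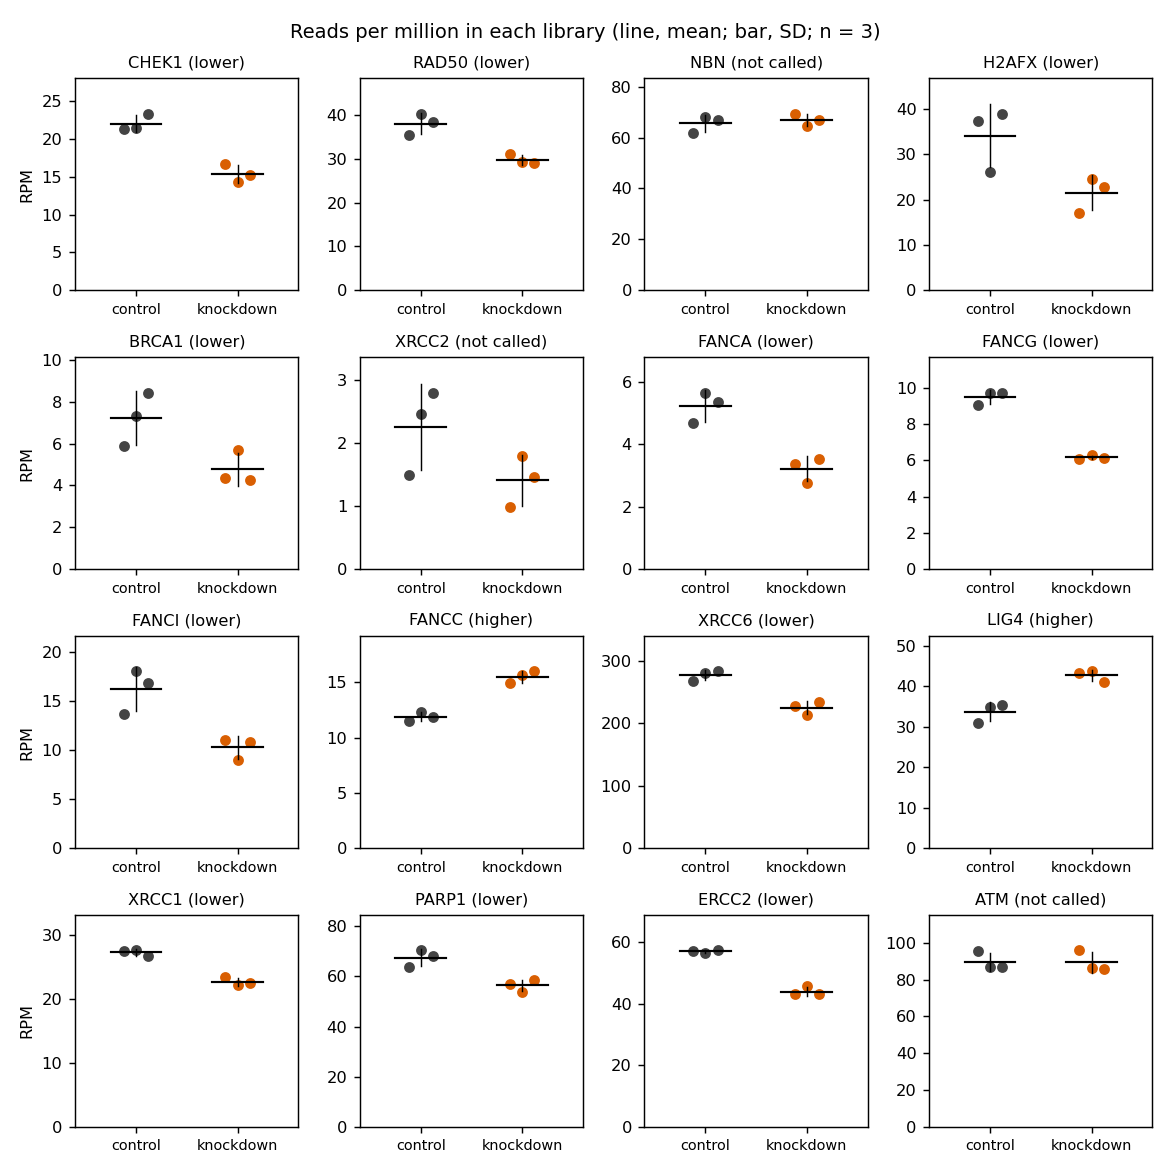
Each panel shows 1 gene, with RPM on the y axis from 0, a point for each of the 3 control and 3 knockdown libraries, a horizontal line at the mean and a bar of 1 SD. CHEK1, RAD50, FANCA, FANCG and ERCC2 sit lower in every knockdown library, FANCC and LIG4 sit higher in every one, and ATM and NBN overlap.

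Homologous recombination had 1 called gene in 12, BRCA1, although 11 of the 12 values were negative and their median log2 difference was -0.27. With the GC and length trend removed 5 were called lower, BRCA2, BRIP1, RAD51D and XRCC2 being added, and with the replicate block 2. BRCA1, which steers breaks toward recombination, was at 5.87, 7.33 and 8.44 RPM in the controls and at 4.35, 5.68 and 4.28 RPM in the knockdown libraries. The highest knockdown value fell just short of the lowest control (log2 difference -0.59, SE 0.15, adjusted p = 0.0090). XRCC2, named here after its values were seen, had a difference of -0.65 (SE 0.27) and was not called (adjusted p = 0.071). It rested on 51, 74 and 141 reads in the controls and 22, 42 and 41 in the knockdown libraries, and its groups overlapped, at 1.498, 2.464 and 2.802 RPM against 0.9861, 1.793 and 1.46 RPM. Without control 1 it was called, as was BRIP1, which made 3 called genes in the pathway. Leaving out control 2 added RAD51D, and leaving out knockdown 2 added XRCC2. The shares over all genes in these fits, and with the replicate block, are not given here.

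The uncalled genes of this pathway rested on 21 to 684 reads per library and had standard errors from 0.071 to 0.27. BRCA2 had a difference of -0.33 (interval -0.76 to 0.11), and its partner PALB2 one of -0.08 (interval -0.25 to 0.10). PALB2 was at 13.7, 15.4 and 13.6 RPM in the controls and 12.7, 13.5 and 14.2 RPM in the knockdown libraries, with overlap. BARD1, the partner of BRCA1, had a difference of -0.26, the helicase BRIP1 one of -0.28, RAD51B one of -0.28, RAD51D one of -0.27, the motor proteins RAD54L and RAD54B ones of -0.33 and -0.24, and XRCC3 one of -0.05. For BARD1 and BRIP1 every knockdown library lay below every control. RAD51D shares its span with the readthrough gene RAD51L3-RFFL and RAD54B with FSBP, both on the same strand. RAD51C was the 1 positive value, at 10.2, 10.6 and 10.8 RPM in the controls and 11.8, 11.7 and 11.3 RPM in the knockdown libraries. Its groups did not overlap, and the difference of 0.14 (interval -0.02 to 0.29) was not called (adjusted p = 0.15).

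Among the pathways as listed, the 9 Fanconi anaemia genes had the largest median fall, with a log2 difference of -0.52. FANCA, FANCB, FANCD2, FANCE, FANCG and FANCI fell, FANCC rose, and FANCL and FANCM were not called. FANCF, a Fanconi gene outside the 9 and named after its values were seen, was not called (log2 difference -0.04, adjusted p = 0.76, limma). The core complex, which FANCA, FANCB, FANCC, FANCE, FANCG and FANCL help to form, attaches ubiquitin to the FANCD2-FANCI pair at a stalled fork. FANCA was at 4.67, 5.66 and 5.35 RPM in the controls and 3.36, 2.78 and 3.53 RPM in the knockdown libraries, 61.6% of the control mean (log2 difference -0.70, SE 0.13, adjusted p = 0.0014). No knockdown value reached a control value. FANCG, at 9:35073832-35080013 on the minus strand, had the tightest knockdown values of the pathway, 6.10, 6.28 and 6.13 RPM, against 9.05, 9.69 and 9.74 RPM in the controls (log2 difference -0.62, SE 0.082, adjusted p = 0.00016). No gene in the table overlaps it.

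Both members of the ubiquitinated pair fell. FANCI was at 13.66, 17.98 and 16.85 RPM in the controls and 11.03, 8.922 and 10.79 RPM in the knockdown libraries (log2 difference -0.65, SE 0.11, adjusted p = 0.0010). FANCD2 was at 3.61, 4.83 and 4.23 RPM in the controls and 2.64, 3.07 and 3.03 RPM in the knockdown libraries (log2 difference -0.52, SE 0.14, adjusted p = 0.010). In both genes control 1 was the lowest control, and the groups did not overlap. FANCB, on the X chromosome, was at 1.47, 1.73 and 1.49 RPM against 1.17, 0.939 and 0.855 RPM (log2 difference -0.66, SE 0.19, adjusted p = 0.017), on 22 to 75 reads per library. Its call was lost without control 2 (adjusted p = 0.062), without knockdown 3 (adjusted p = 0.059) and with all libraries thinned to equal depth (adjusted p = 0.052).

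FANCE, which links the core complex to FANCD2, fell by 0.36 on the log2 scale (SE 0.11, adjusted p = 0.017). It lost the call without control 2 or knockdown 2 (adjusted p = 0.053 and 0.051), when thinned, and with the GC and length trend removed (log2 difference -0.25, adjusted p = 0.076). FANCC, given although it lies outside the 5 largest differences and chosen after its values were seen, went the other way: it was at 11.5, 12.3 and 11.9 RPM in the controls and at 14.9, 15.7 and 16.0 RPM in the knockdown libraries, 130.4% of the control mean (log2 difference 0.38, SE 0.069, adjusted p = 0.0012). The groups were well apart, and FANCC kept its call in every alternative run. FANCM, the translocase that brings the complex to DNA, was at 7.25, 7.53 and 7.37 RPM against 6.90, 6.02 and 7.12 RPM. Every knockdown library lay below every control, but the difference of -0.15 was not called (interval -0.35 to 0.06). FANCL, the ubiquitin ligase, was at 3.55, 3.40 and 3.14 RPM against 3.68, 3.16 and 2.57 RPM (difference -0.11, interval -0.44 to 0.21).

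Because FANCA and FANCC belong to the same complex and moved in opposite directions, the 250 bases before their starts are printed here, from the RefSeq promoter table (GRCh38.p14, a different build from that of the count table). FANCA and FANCC are the 2 called genes with a match to the E2F words searched. The words were TTTGGCGC, TTTCCCGC, TTTGCCGC, TTTCGCGC and GGCGGGAA, on both strands, and TTTCCCGC can overlap the reverse complement of GGCGGGAA. The windows of FANCG, a fallen gene with no match, and LIG1, an uncalled gene with overlapping matches, were added after their values were seen, to show the other outcomes. FANCA is at chr16:89816648-89816897, FANCC at chr9:95317710-95317959, FANCG at chr9:35079943-35080192 and LIG1 at chr19:48170345-48170594, all on the minus strand. Each reads 5′ to 3′ toward the start, with the matches in capitals.
FANCA: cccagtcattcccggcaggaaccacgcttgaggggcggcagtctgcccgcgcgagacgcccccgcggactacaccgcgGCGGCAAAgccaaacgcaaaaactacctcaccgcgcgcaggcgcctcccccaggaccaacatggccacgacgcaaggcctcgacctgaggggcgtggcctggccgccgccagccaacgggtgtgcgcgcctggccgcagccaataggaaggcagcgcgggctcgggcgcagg
FANCC: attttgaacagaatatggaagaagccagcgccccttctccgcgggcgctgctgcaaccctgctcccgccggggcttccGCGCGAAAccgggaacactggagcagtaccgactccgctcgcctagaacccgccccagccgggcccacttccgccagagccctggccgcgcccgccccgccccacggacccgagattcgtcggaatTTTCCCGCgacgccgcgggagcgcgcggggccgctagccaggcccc
FANCG: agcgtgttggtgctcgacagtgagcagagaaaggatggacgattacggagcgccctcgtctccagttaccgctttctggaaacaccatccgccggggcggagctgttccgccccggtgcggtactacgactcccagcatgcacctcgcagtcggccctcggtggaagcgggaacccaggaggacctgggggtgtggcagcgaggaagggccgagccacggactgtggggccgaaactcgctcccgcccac
LIG1: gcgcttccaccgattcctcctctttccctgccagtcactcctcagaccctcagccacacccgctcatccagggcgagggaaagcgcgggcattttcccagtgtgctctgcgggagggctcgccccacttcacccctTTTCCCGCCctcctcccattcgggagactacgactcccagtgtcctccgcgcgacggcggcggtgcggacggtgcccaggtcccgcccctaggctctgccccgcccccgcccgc
FANCC has a second listed start, whose window is not printed and holds a match beginning 115 bases before it. The FANCA match begins 172 bases before the start, the printed FANCC matches 172 and 46 bases before it, and the LIG1 matches 114 and 113 bases before it. The table held promoters for 47 of the 52 genes, 2 of them under a synonym. A word matched in 10 of the 47 (21.3%), against 1572 of the 27305 genes of the promoter table (5.76%) in the same window. Those 27305 were not limited to the genes tested here, so the 2 shares come from unlike sets. A gene with several listed starts counted as matched when any of them had a match. A match was present in 1 of 17 genes called lower, 1 of 2 called higher and 8 of 28 not called. Counted with the 50 bases after the start as well, 15 of 47 had a match (31.9%, against 6.67% of the promoter table), among them 3 of the 17 called lower. The word TTTGAA, known from promoters of mitosis genes, was in 8 of 47 in the 250 bases (all genes 16.1%) and in 4 of the 17 called lower. A match is a match of letters only, and where none is found these letters are simply not in this window.

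End joining split by subunit. XRCC6, the Ku70 subunit of the ring that caps broken ends, was at 267.1, 280.5 and 282.8 RPM in the controls and 227.6, 212.7 and 233.8 RPM in the knockdown libraries (log2 difference -0.30, SE 0.047, adjusted p = 0.00047). The groups were clearly apart, although 5 like-named copies in the table could take up some of its reads. XRCC5, the Ku80 subunit, was at 397.1, 425.2 and 436.6 RPM against 409.2, 382.1 and 408.3 RPM. It overlapped and was not called (log2 difference -0.07, interval -0.17 to 0.04). PRKDC, the kinase that Ku recruits, was at 326.6, 356.9 and 337.1 RPM in the controls and 311.7, 281.5 and 291.9 RPM in the knockdown libraries (log2 difference -0.21, SE 0.050, adjusted p = 0.0072). All knockdown values lay below the controls, and the call was lost without the intensity trend (adjusted p = 0.055).

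LIG4, the ligase that seals the joined ends, rose. It was at 31.0, 34.8 and 35.4 RPM in the controls and 43.2, 43.7 and 41.1 RPM in the knockdown libraries, 126.6% of the control mean (log2 difference 0.34, SE 0.062, adjusted p = 0.0013). Every knockdown library exceeded every control, and no gene in the table overlaps LIG4. XRCC4, the scaffold that holds LIG4, was at 5.43, 6.09 and 6.48 RPM against 6.45, 6.79 and 6.02 RPM, with overlap (log2 difference 0.10, interval -0.12 to 0.32).

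In base excision and single-strand break repair, OGG1, XRCC1, PARP1 and APEX1 fell and LIG1, LIG3, PARP2 and UNG were not called. OGG1, the glycosylase that removes oxidised guanine, was at 22.3, 21.4 and 22.3 RPM in the controls and 15.9, 19.9 and 16.3 RPM in the knockdown libraries (log2 difference -0.35, SE 0.085, adjusted p = 0.0071). The controls were close together, and knockdown 2 lay nearest to them. OGG1 overlaps CAMK1 and TADA3 on the opposite strand. XRCC1, the scaffold of single-strand break repair, was at 27.5, 27.6 and 26.7 RPM against 23.4, 22.2 and 22.5 RPM (log2 difference -0.26, SE 0.056, adjusted p = 0.0032). PARP1, which senses nicks and marks them with poly(ADP-ribose), was at 63.9, 70.4 and 68.2 RPM against 56.9, 53.8 and 58.5 RPM (log2 difference -0.26, SE 0.054, adjusted p = 0.0031). Neither gene overlapped between the groups.

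APEX1, the endonuclease that cuts at a lost base, was at 147.5, 159.8 and 160.0 RPM in the controls and 141.2, 128.9 and 139.6 RPM in the knockdown libraries (log2 difference -0.19, SE 0.051, adjusted p = 0.013). The groups were close, and the call was lost without control 3 (adjusted p = 0.064), without knockdown 2 (adjusted p = 0.054) and without the intensity trend (adjusted p = 0.068). LIG3, the ligase partner of XRCC1, was at 28.3, 32.3 and 30.1 RPM against 33.5, 32.9 and 33.9 RPM. Its knockdown values lay above all controls, but the difference of 0.15 (interval 0.01 to 0.28) was not called (adjusted p = 0.074). LIG3 was called higher on library totals (adjusted p = 0.044), on median-of-ratios size factors (adjusted p = 0.046), after quantile normalization (adjusted p = 0.034) and without control 2 (adjusted p = 0.030). UNG, which removes uracil, was at 18.9, 16.8 and 17.9 RPM against 19.5, 18.7 and 17.8 RPM (difference 0.06, interval -0.09 to 0.22). LIG1, the replicative ligase whose promoter is printed above, had a difference of -0.05 (interval -0.20 to 0.11), and PARP2 one of -0.16 (adjusted p = 0.096) with all knockdown values below the controls.

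None of the 3 mismatch repair genes was called by limma, and none passed an unadjusted p of 0.05. MSH6, which helps to read single mismatches, was at 43.4, 46.9 and 44.8 RPM in the controls and 44.4, 39.4 and 42.6 RPM in the knockdown libraries (difference -0.10, interval -0.23 to 0.03). MSH3, which reads larger loops, was at 16.8, 17.4 and 17.4 RPM against 18.7, 17.0 and 15.5 RPM (difference -0.01, interval -0.18 to 0.15). PMS2, the endonuclease of the pathway, had a difference of -0.03, with 9 like-named copies in the table. With the GC and length trend removed, MSH6 was called lower (log2 difference -0.21, adjusted p = 0.0023).

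In nucleotide excision repair, ERCC2 and ERCC1 fell while ERCC3, ERCC4 and ERCC5 were not called. ERCC2, the XPD helicase of TFIIH, was at 57.0, 56.4 and 57.3 RPM in the controls and 43.0, 45.5 and 43.0 RPM in the knockdown libraries (log2 difference -0.38, SE 0.048, adjusted p = 0.00013). The spread within either group was small beside the gap between them, and this was the smallest adjusted p of the 52 genes. ERCC1, part of the nuclease that cuts on the 5′ side of the lesion, was at 152.9, 141.8 and 153.6 RPM against 119.8, 130.1 and 125.5 RPM (log2 difference -0.26, SE 0.049, adjusted p = 0.0019). ERCC3, the XPB helicase of TFIIH, was at 57.7, 63.3 and 61.4 RPM against 59.7, 53.8 and 54.6 RPM, with overlap (difference -0.12, interval -0.24 to 0.01). ERCC4, the nuclease partner of ERCC1, had a difference of -0.0060 (interval -0.18 to 0.16). ERCC5, which cuts on the 3′ side, was at 23.3, 22.0 and 23.7 RPM against 20.1, 21.2 and 22.6 RPM (difference -0.11), and shares its span with the readthrough gene BIVM-ERCC5 on the same strand.

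**Figure D3:**
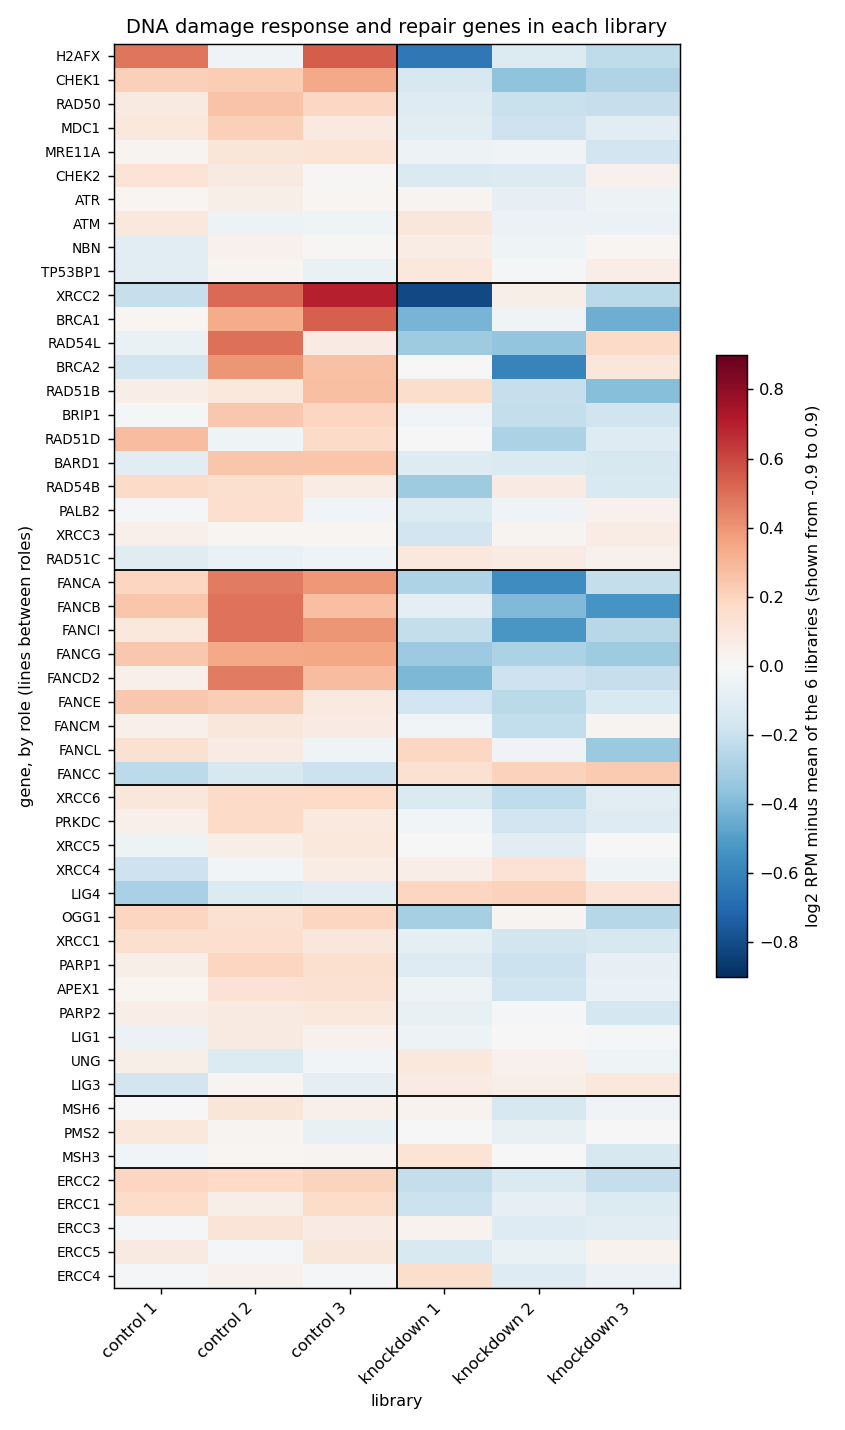
Each row is a gene, grouped by role between the horizontal lines, each column is a library, and the colour is the log2 RPM minus the mean of that gene over the 6 libraries, red for above and blue for below. In the Fanconi anaemia block the 6 genes that fell turn from red to blue between control and knockdown and FANCC turns the other way. FANCL overlaps between the groups, and FANCM, not called, is slightly lower in every knockdown library. Control 1 is paler than the other controls in many rows, being the lowest control for 12 of the 19 genes called lower.

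Several of these proteins work as pairs, and ratios within a library do not depend on how libraries were scaled. For 14 pairs the log2 ratio of the partners' RPM was compared between the groups with the exact two-sided permutation test over libraries, whose smallest possible p at 3 against 3 is 0.1, so no pair could pass a threshold of 0.05. RAD50 relative to NBN was -0.80, -0.76 and -0.80 in the controls and -1.15, -1.14 and -1.20 in the knockdown libraries (difference -0.38, exact p = 0.1, adjusted over the 14 pairs 0.2). The gap between these groups was several times the spread within them. FANCC relative to FANCE moved by 0.75, XRCC1 relative to LIG3 by -0.41, ERCC2 relative to ERCC3 by -0.26, LIG4 relative to XRCC4 by 0.24, XRCC6 relative to XRCC5 by -0.23 and MRE11A relative to NBN by -0.19, each without overlap and each at that smallest p. Altogether, 7 of the 14 pairs did not overlap, and among single genes 51.1% of those tested did not. The ratios of FANCD2 to FANCI (difference 0.13), FANCA to FANCG (-0.08), MSH6 to MSH3 (-0.08), BRCA1 to BARD1 (-0.33), BRCA2 to PALB2 (-0.25), RAD51D to XRCC2 (0.38) and ERCC1 to ERCC4 (-0.25) overlapped between the groups. A shift in a ratio shows unequal change and not which partner moved.

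**Figure D4:**
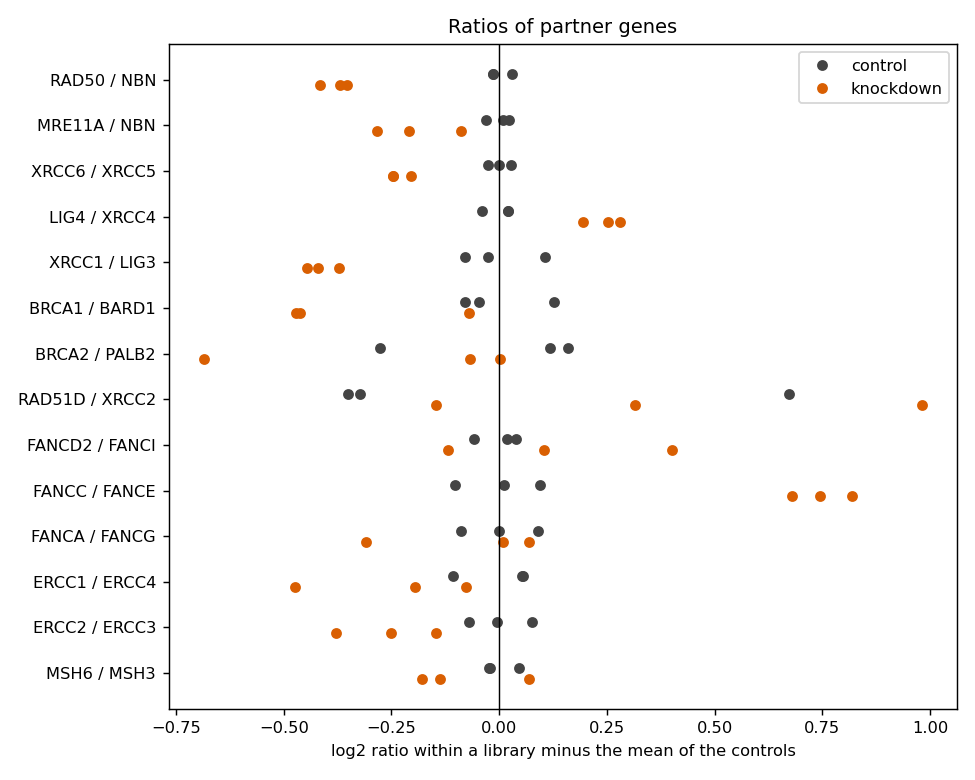
Each row is a pair, and each point is the log2 ratio of the first gene to the second in 1 library minus the mean of the 3 controls. Control points centre on 0, and the knockdown points of RAD50 / NBN (-0.38) and FANCC / FANCE (0.75) lie apart from them on opposite sides.

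Other genes of repair and checkpoint control were called in both directions. Of 76 tested, 15 were called lower (19.7%, against 23.5% of all genes tested) and 11 higher (14.5%, against 17.5%), with a median log2 difference of -0.03 that became 0.01 after quantile normalization. TDG, the glycosylase that removes mispaired thymine, rose from 24.99, 26.81 and 24.74 RPM to 53.1, 53.5 and 50.7 RPM (log2 difference 1.04, adjusted p = 3.4e-07). REV3L, the catalytic subunit of a translesion polymerase, rose by 0.87 on the log2 scale (adjusted p = 1.3e-06) and RAD52, an annealing factor, by 0.47 (adjusted p = 0.0011). UBE2T, the ubiquitin-conjugating enzyme of the Fanconi pathway, fell from 8.55, 10.0 and 9.02 RPM to 4.26, 5.08 and 4.63 RPM (log2 difference -0.98, adjusted p = 3.3e-05). Other genes of that pathway on this list, named after their values were seen, were not called: FANCF (-0.04), SLX4 (-0.14), FAN1 (-0.04), USP1 (0.08) and WDR48 (-0.02). RECQL4, a helicase, fell by 0.82 (adjusted p = 0.00044) and ATRIP, the partner of ATR, by 0.60 (adjusted p = 0.0011). Without control 3 the count of lower genes on this list was 9, and the share over all genes in that fit is not given here.

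Genes of cell division moved with the group as well. Of 26 tested genes of G1/S transition and DNA replication, 17 were called lower (65.4%, against 23.5% of all genes tested). There 1 was called higher (3.85%, against 17.5%), TYMS, at 0.61, named after its value was seen. The median of the 26 was -0.44. E2F1, an activating E2F factor, fell from 8.25, 9.06 and 9.66 RPM to 4.26, 4.23 and 4.20 RPM (log2 difference -1.08, adjusted p = 8.9e-06), and MCM6, a subunit of the replicative helicase, by 0.75. All 18 mitosis genes had a negative value, with a median of -0.51, and limma called 13 of them lower (72.2%, against 23.5%). With 1 library left out at a time that count ran from 6 (without control 3) to 18, and it was 8 without knockdown 2. The shares over all genes in those fits are not given here, so these counts are not set against them. CDC20, an activator of the anaphase-promoting complex, and UBE2C, its ubiquitin-conjugating enzyme, each fell by 0.75. The G1/S genes summed to 423.8, 467.1 and 470.3 RPM in the controls and to 362.0, 344.2 and 374.6 RPM in the knockdown libraries. The mitosis genes summed to 230.8, 320.4 and 307.2 RPM and to 207.9, 180.4 and 208.9 RPM, so control 1 was the lowest control in both sums. In bulk RNA, fewer dividing cells and less RNA per cell cannot be told apart, and the part of cell division in the fall of the Fanconi genes, BRCA1 and CHEK1 was not tested.

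Targets of p53, the transcription factor that ATM and CHEK2 activate, moved the other way. Of 24 tested, 16 were called higher (66.7%, against 17.5% of all genes tested) and 2 lower (8.33%, against 23.5%). The 2 lower were SESN2 (-0.18) and PLK3 (-0.24), named after their values were seen. The median log2 difference of the 24 was 0.37. The lower count was 0 with the GC and length trend removed and 1 under quantile normalization, thinning, the replicate block, a stricter threshold or no intensity trend. CDKN1A, which encodes the cycle inhibitor p21, rose from 1266.9, 1093.4 and 1134.7 RPM to 2062.7, 2301.3 and 2143.5 RPM (log2 difference 0.90, adjusted p = 1.5e-06). TP53INP1 rose by 1.43, BTG2 by 0.91, MDM2, the ligase that degrades p53, by 0.80, and PPM1D, the phosphatase that switches off ATM signalling, and GDF15 by 0.73 each. DDB2 (0.35) and XPC (0.31), damage recognition factors of nucleotide excision repair, named after their values were seen, are on this list and on that of the other repair genes, and both rose, whereas ERCC1 and ERCC2 of the same pathway fell.

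Sequence composition is a measured difference between the repair genes and the rest. Their median transcript GC content was 44.1%, against 47.5% for all genes tested that had a value (97.4% of them), and the median of their longest transcripts was 4138 nucleotides against 2777. When a trend of the log2 values on both properties was removed, 37 of the 52 genes took a lower value than before and 12 gained a call as lower: ATM (-0.16), ATR (-0.18), MRE11A (-0.28), BRCA2 (-0.49), BRIP1 (-0.39), RAD51D (-0.37), XRCC2 (-0.73), FANCM (-0.27), XRCC5 (-0.11), MSH6 (-0.21), ERCC3 (-0.15) and ERCC5 (-0.18). FANCE was the 1 call lost. FANCC and LIG4 stayed called higher. Among called genes, H2AFX moved from -0.66 to -0.41, XRCC1 from -0.26 to -0.16 (adjusted p = 0.049, at the edge of the threshold) and PRKDC from -0.21 to -0.33. In the main fit the calls for ATM, ATR and the other 10 therefore depend on whether this trend is taken out. Those for the genes that fell in the deposited values, FANCE apart, do not. With the trend left in, XRCC2 was also called with the replicate block and without control 1 or knockdown 2. BRIP1 was called without control 1, RAD51D without control 2 and ERCC3 without knockdown 1.

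**Figure D5:**
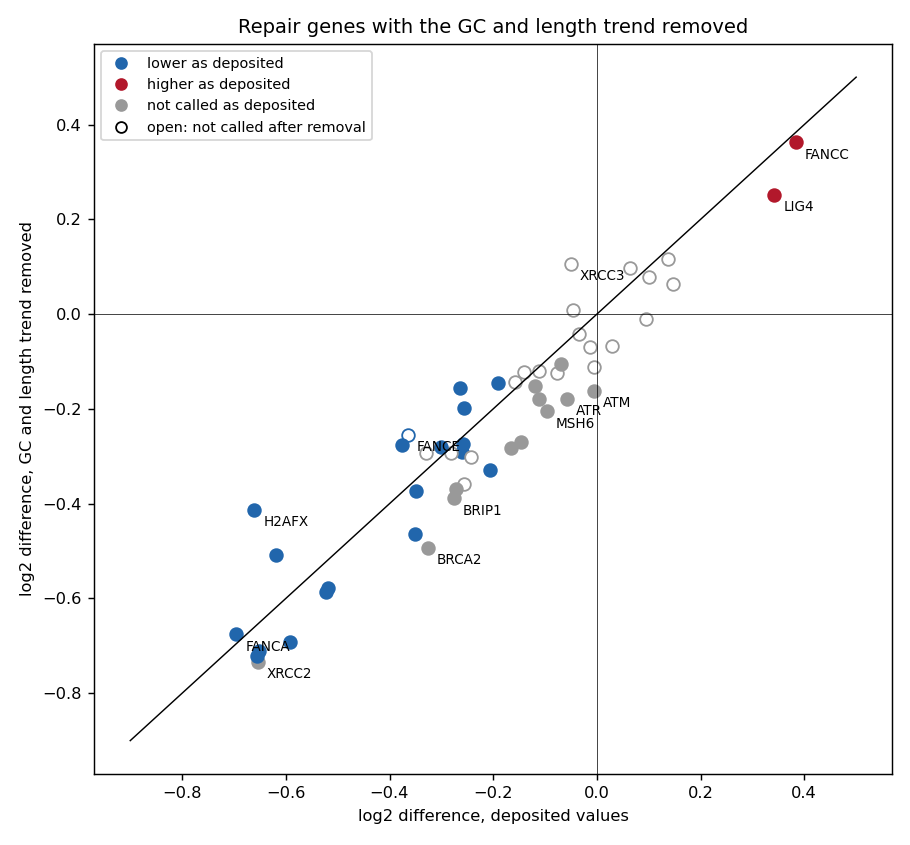
The x axis is the log2 difference in the deposited values and the y axis the one after the trend on GC content and length was removed, with 1 point per gene, the diagonal marking equal values and open points marking genes not called after removal. Most points lie on or below the diagonal, as 37 of 52 took a lower value, and FANCC and LIG4 stay at the upper right.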

How the data were processed

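The data are polyadenylated RNA-seq libraries of IMR90 ER:Ras cells, 3 control and 3 knockdown. Reads were processed with Bowtie2 and featureCounts on hg19, per the submitters' processing notes; versions, strand setting and annotation release are not given in the sources used here. The deposited table holds log2 values per gene, which the authors made as the log2 of reads plus 0.5, scaled to an effective library size of 1000000, as the values themselves show: undoing this gave whole reads for 100% of values (tolerance 0.001), with effective sizes within 0.9885 to 1.0087 of the totals. Depth ranged from 22117324 to 50913672 reads. The deposited log2 values were fitted with limma 3.58.1 (R 4.3.3; lmFit, eBayes with trend, group only, two-sided) for the 19048 genes with a mean of at least 10 normalized reads, with Benjamini-Hochberg adjustment over all of them and a threshold of 0.05. The scripts were tested on simulated data. Samples were grouped by their labels. Gene coordinates are those of the deposited table.

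The 52 genes, the other lists and the pathways were chosen with earlier results of these data known. In each pathway the called genes with the largest differences (up to 5) and up to 2 uncalled genes with the most reads were given with every library's value; of the other lists up to 6 called genes were eligible. Genes named outside this rule are marked in the text as chosen after their values were seen. Of the 52, 15 overlap a listed gene on the same strand, 33 one on the opposite strand and 6 have like-named copies, and reads of such genes may be split or shared. NHEJ1 and E2F2 fell below the filter, PECAM1 was not matched, and TIGAR was matched by its identifier. Alternatives covered the pseudocount, the filter, scaling, the variance model, depth, a replicate block, the threshold, GC content and length, and leaving out each library.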

Additional observations from a re-analysis of the deposited data

How the results depend on the processing

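Over 22 other settings, 15 of the 21 called repair genes kept their direction and call in every one, none reversed, and 6 lost the call in at least 1 (5 apart from the stricter threshold, 3 with a library left out: FANCB, FANCE and APEX1). Of the 31 uncalled genes, 13 gained a call and 9 reversed the sign of an uncalled value somewhere. No shared effect of the replicate number was seen: r was -0.15, -0.18 and 0.07 for same-numbered libraries and -0.08 to 0.2 for the others. These values rest on 3 libraries a group and cannot decide whether the libraries were paired. With the number as a replicate block, 20 repair genes were lower and 2 higher (XRCC2 gained), 2 of homologous recombination were lower and 1 p53 target was lower. The share of all genes called with that block is not given here. FANCB, RAD54B and XRCC2 rest on the fewest reads, and FANCB lost its call when thinned to equal depth. Where no cause is stated, the cause was not tested.

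With the GC and length trend removed, 30 repair genes were lower (median -0.23), among them 7 kinases and sensors (median -0.23), 5 of homologous recombination, 1 of mismatch repair and 4 of nucleotide excision (median -0.18). Of the p53 targets 0 were then lower in limma (median 0.35), the median of all genes was -0.018, and NBN (-0.068), TP53BP1 (-0.011), XRCC3 (0.11) and LIG1 (0.0092) changed sign without a call. At an adjusted p under 0.01, 2955 genes were lower in all, with 3 Fanconi anaemia genes, 9 other repair genes, 6 mitosis genes and 1 p53 target, as the stricter threshold alone sets.

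On library totals the medians were -0.020 (all genes), -0.13 (kinases and sensors) and 0.39 (p53 targets), 1 base excision gene was higher (LIG3), and ATM (0.014), MSH3 (0.0049) and ERCC4 (0.013) turned positive. On median-of-ratios size factors they were -0.17 (repair genes), -0.012 (all genes), -0.13 (kinases and sensors), -0.091 (nucleotide excision) and 0.40 (p53 targets), with 1 base excision gene higher and ATM (0.022), MSH3 (0.013) and ERCC4 (0.021) positive. After quantile normalization they were -0.0076 (all genes), -0.11 (kinases and sensors), -0.47 (Fanconi), -0.0074 (end joining), -0.078 (nucleotide excision), 0.012 (other repair genes) and 0.40 (p53 targets), with 1 base excision gene higher, 1 p53 target lower, and ATM (0.031), MSH3 (0.022), PMS2 (0.0013) and ERCC4 (0.038) positive. On trimmed means of M-values ATM (0.0018) and ERCC4 (0.00077) turned positive.

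With a pseudocount of 5 the medians were -0.014 (all genes), -0.14 (kinases and sensors) and -0.48 (Fanconi), and with a mean of at least 50 reads the Fanconi median was -0.44. Thinned to equal depth, the medians were -0.12 (kinases and sensors) and -0.47 (Fanconi), 1 p53 target was lower, and FANCL (0.024), MSH3 (0.034) and ERCC4 (0.062) turned positive. Without the intensity trend, 1 end joining gene, 6 mitosis genes and 1 p53 target were lower.

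With each library left out in turn, the repair genes called lower numbered 18 to 21 and the higher ones 2 to 3, with medians from -0.22 to -0.17. In the main fit 23.5% of all genes tested were called lower and 17.5% higher. The shares over all genes in these fits are not given here, so the counts are not set against them. Homologous recombination had 1 to 3 lower (median -0.34 to -0.22), base excision 0 to 1 higher, the other repair genes 9 to 19 lower, mitosis genes 6 to 18 lower (median -0.67 to -0.42) and p53 targets 1 to 2 lower (median 0.34 to 0.41). Medians ran from -0.16 to -0.14 for kinases and sensors, -0.63 to -0.42 for Fanconi genes, -0.081 to -0.015 for mismatch repair and -0.16 to -0.11 for nucleotide excision. Uncalled values that changed sign ran from -0.057 to 0.041 for ATM, -0.012 to 0.056 for NBN, -0.097 to 0.022 for XRCC3, -0.23 to 0.024 for FANCL, -0.081 to 0.053 for MSH3, -0.078 to 0.0027 for PMS2 and -0.087 to 0.052 for ERCC4.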
